A study of Macaca mulatta with 16 samples.

Results

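Genes that build cholesterol, fatty acids and phospholipids were followed in the fetal lung of the rhesus macaque (Macaca mulatta) after intraamniotic lipopolysaccharide (LPS), a bacterial inflammatory stimulus, given with or without an antenatal corticosteroid. The list named 35 genes in 3 groups, 18 for sterol synthesis, 8 for fatty acid synthesis and 9 for phospholipid synthesis. A member was any row of the deposited count table whose Ensembl identifier carried its symbol, a rule that uses no measured value, although the list itself was drawn up with earlier results of these data known. A row was found for 32 members among the 22515 genes of the table, and all 32 passed the filter on low counts, as did 19199 genes in all. They comprised 16 sterol, 7 fatty acid and 9 phospholipid genes. The sterol enzymes CYP51A1 and EBP and the fatty acid elongase ELOVL1 matched no identifier and were not analysed here.

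Cholesterol is assembled from acetyl-CoA by way of mevalonate, isoprenoid units, squalene and lanosterol, and many genes of this route carry sites for the transcription factor SREBP2, the product of SREBF2. When sterols are plentiful the membrane protein INSIG1 holds the SREBP precursors in the endoplasmic reticulum, and when sterols fall the precursors are cut and enter the nucleus. The SREBF1 product acts mainly on the genes of fatty acid synthesis. In the lung, alveolar type 2 cells draw on all 3 routes, since they secrete surfactant, a film made largely of saturated phosphatidylcholine with some cholesterol and surfactant proteins.

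The 16 animals each gave 1 bulk RNA library of lung tissue and fell into 5 groups. There were 4 preterm controls without any intervention (animals 092, 101, 113 and 209, delivered at 131 to 135 days of gestation) and 2 term controls without intervention (200 and 201, at 156 and 157 days). LPS was injected into the amniotic fluid at 1 mg, and 4 fetuses (026, 029, 035 and 038) were delivered 16 hours later, at 130 or 131 days, while 3 (239, 240 and 242) were delivered 5 days later, at 131 to 134 days. A further 3 fetuses (248, 249 and 255) were delivered 5 days after the same LPS dose combined with betamethasone-acetate (Beta-Ac), a slow-release glucocorticoid given to the dam by intramuscular injection at 0.125 mg/kg, at 131 or 132 days. The dams were time-mated and the fetuses delivered by cesarean section, and no group given the vehicle of LPS alone is among these samples. Values per animal are listed below in the order of the animal numbers just given.

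Library totals ran from 30596371 to 48052891 counts in the 4 animals at 16 hours and from 20169363 to 28348816 counts in the other 12, so the 16-hour libraries were the deepest. The member with the fewest counts, ELOVL6, still had 45 counts or more in every library. Levels are given as CPM, a gene's count relative to its library total after TMM scaling, which corrects that total for genes that take up an unusual share of it, and differences as log2 fold changes with a standard error (SE). The test was limma on log2 CPM with a prior count of 2 over all 19199 genes and all 16 animals, two-sided, and a gene passed at a Benjamini-Hochberg adjusted p below 0.05. The CPM do not correct for transcript length, so genes are compared with themselves across groups and never with each other.

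Sterol genes made up most of the large differences in the list, 14 of the 17 that reached 2-fold, and these were seen 16 hours after LPS. Against preterm controls, 25 members were higher and 2 lower at 16 hours, in a comparison where 18.5% of all genes tested were higher and 19.9% lower. The 25 included 15 of 16 sterol genes, 7 of 7 fatty acid genes and 3 of 9 phospholipid genes, and both lower members were phospholipid genes. Of the 27 members that passed, 23 had no overlap between the 4 animals at 16 hours and the 4 preterm controls. The share without overlap over all genes is not given here. Of the same 27, 17 reached 2-fold, all of them higher, where 1583 of 19199 genes passed higher and 1174 lower at that minimum. The median log2 fold change was 1.92 over the sterol members, 0.77 over the fatty acid members and 0.04 over the phospholipid members, beside -0.09 over all genes.

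At 5 days after LPS alone 2 members were higher than in preterm controls and 1 lower, where 5.5% of all genes were higher and 9.23% lower. After LPS + Beta-Ac 3 were higher and 3 lower, where 7.14% of all genes were higher and 10.2% lower. Fitted on the compared groups alone, 5 members were higher and 2 lower after LPS, where 1645 of 18703 genes were higher and 1821 lower. In that fit 10 members were higher and 4 lower after LPS + Beta-Ac, where 1955 of 18717 genes were higher and 1955 lower. Term controls had 0 members higher and 1 lower, with 1.43% of all genes higher and 2.58% lower. At an unadjusted p below 0.05 there were 10 members in the term comparison, against 3626 of 19199 genes. In the same comparison limma-voom passed 0 members, where 190 of all genes were higher and 375 lower. Between the LPS groups themselves, 20 members were lower and 1 higher at 5 days than at 16 hours, where 19.2% of all genes were lower and 15.8% higher.

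**Figure D1:**
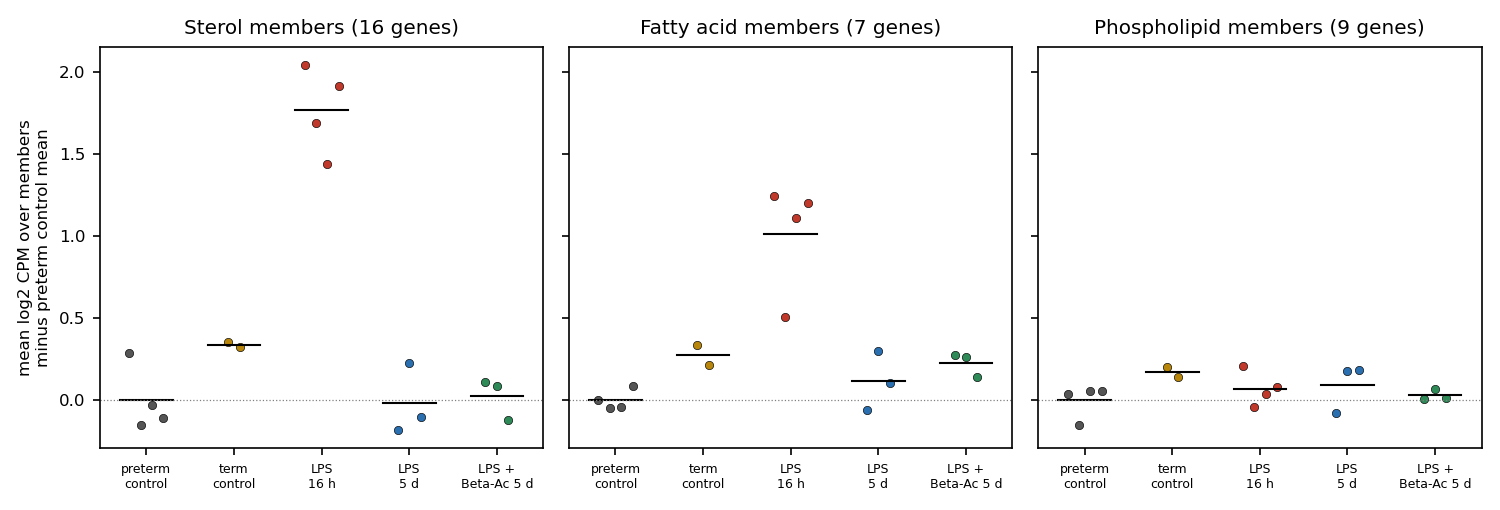
Mean log2 CPM over the members of each group of genes, minus the mean of the preterm controls, per animal (points) and group (bars, mean) for 16 sterol, 7 fatty acid and 9 phospholipid genes. The 4 animals at 16 hours sit between 1.44 and 2.04 for the sterol genes and between 0.51 and 1.24 for the fatty acid genes, above all other animals, while for the phospholipid genes the groups overlap.

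Summed over the 16 sterol members, the level was 789 ± 128 CPM (SD, n = 4) in preterm controls and 2480 ± 467 CPM (SD, n = 4) at 16 hours. It was 838.5 ± 141 CPM (SD, n = 3) at 5 days after LPS, 844 ± 76.6 CPM (SD, n = 3) after LPS + Beta-Ac and 946 ± 45.5 CPM (SD, n = 2) at term. The fatty acid members summed to 548 ± 17.6 CPM in preterm controls, 1023 ± 178 CPM at 16 hours, 647 ± 100.2 CPM at 5 days, 717 ± 55.5 CPM after LPS + Beta-Ac and 642 ± 54.6 CPM at term. For the phospholipid members the sums were 438 ± 15.3, 479 ± 51.0, 485 ± 24.9, 453 ± 8.12 and 530 ± 47.6 CPM in the same order. The sterol sum at 16 hours thus lay above that of every other animal, whereas the phospholipid sum at 16 hours (403 to 513 CPM) overlapped that of the preterm controls (417 to 454 CPM).

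These are tissue averages, and fewer cells of a type cannot be told apart from less RNA per cell. Lists of markers for the cell types of the lung were read in the same comparison, where 18.5% of all genes were higher and 19.9% lower. At 16 hours 10 of 12 myeloid markers were higher and 0 lower, their summed level being 2329 to 2923 CPM against 146 to 270.3 CPM in preterm controls, where MARCO was at 0. Most of that sum came from S100A9, CD14 and S100A8, with means of 955, 560 and 503.5 CPM. Mean CD68 went only from 15.8 to 30.55 CPM and LYZ from 67.8 to 85.6 CPM, so the sum does not measure the number of myeloid cells. Of 10 alveolar type 2 markers 7 were higher (11280 to 25360 CPM against 7244 to 12630 CPM), which also marks the tissue as lung, since none of the 10 was at 0 in any library. Of 7 alveolar type 1 markers 5 were lower (1437 to 1706 CPM against 3926 to 4524 CPM), as were 5 of 7 fibroblast markers (7952 to 11530 CPM against 11660 to 19920 CPM). Lower calls on 1 of 6 endothelial and 2 of 8 proliferation markers were near the share over all genes. Of 8 lymphocyte markers 3 were higher, and none of 5 erythroid markers passed. At 5 days the myeloid sum was 314 to 329 CPM after LPS and 536 to 960 CPM after LPS + Beta-Ac, and the type 2 sum was 17440 to 32230 CPM and 19700 to 33190 CPM. Mean S100A9 was then 17.9 and 77.3 CPM, whereas CD68, at 34.9 and 99.4 CPM, was not below its 16-hour mean. Of the 8 type 2 markers that passed in each of these groups, ETV5 alone was lower (-1.04 and -1.15). The part of these shifts in the results on the members was not tested.

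The feedback gene INSIG1 (ENSMMUG00000062591) and the regulator SREBF2 (ENSMMUG00000003357) both rose at 16 hours, to different extents. INSIG1 stood at 32.0, 24.8, 22.5 and 19.0 CPM in the preterm controls and at 178, 91.5, 72.4 and 154 CPM at 16 hours. At 5 days it was 12.0, 20.9 and 16.6 CPM after LPS and 26.7, 21.4 and 24.0 CPM after LPS + Beta-Ac, and at term 46.5 and 34.8 CPM. All 4 animals at 16 hours exceeded all others, by a log2 fold change of 2.26 (SE 0.26, adjusted p = 9.14e-06) over preterm controls. At 5 days after LPS 2 of 3 animals were below the lowest preterm control, but the difference did not pass (-0.59, SE 0.28, adjusted p = 0.195), nor did that at term (0.73, SE 0.32, adjusted p = 0.227), where both animals lay above all preterm controls.

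SREBF2 read 289.6, 172, 219 and 223 CPM in preterm controls and 393, 285, 395 and 362 CPM at 16 hours. Animal 029 at 16 hours lay just below preterm control 092, so the groups overlapped, and the rise was 0.68 (SE 0.17, adjusted p = 0.00443). The other groups held 223, 308.5 and 221 CPM (LPS, 5 days), 296, 244 and 225 CPM (LPS + Beta-Ac) and 260.0 and 214 CPM (term), of which only animals 240 and 248 were above the preterm range. Between 16 hours and 5 days SREBF2 fell by 0.52 on the log2 scale (adjusted p = 0.0331), and this did not pass without animal 026 (0.0774), 035 (0.0822), 038 (0.0662), 239 (0.127) or 242 (0.124).

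Along the route itself, 13 of 14 enzymes with a row were higher at 16 hours, from the condensation of acetyl units to the last reduction of the sterol ring. Of all genes 18.5% were higher in that comparison. HMGCS1 (ENSMMUG00000001226), which makes HMG-CoA for the step before mevalonate, was at 67.9, 49.5, 56.8 and 47.6 CPM in preterm controls and at 438, 249.7, 212 and 484 CPM at 16 hours. In the other groups it was at 33.6, 48.7 and 45.6 CPM (LPS, 5 days), 52.9, 39.2 and 42.9 CPM (LPS + Beta-Ac) and 72.2 and 80.0 CPM (term). That is a 5.92-fold rise at 16 hours (log2 2.57, SE 0.23, adjusted p = 6.51e-07), and the lowest animal at 16 hours, 035, was still above every animal of the other groups.

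The mevalonate kinases and the decarboxylase that follow were not alike. MVD (ENSMMUG00000014326), which turns mevalonate diphosphate into the first isoprenoid unit, was at 28.0, 23.8, 20.2 and 22.7 CPM in preterm controls and at 134, 134.5, 103 and 108 CPM at 16 hours, a log2 fold change of 2.34 (SE 0.19, adjusted p = 1.71e-07). Its values were 32.4, 39.3 and 23.6 CPM at 5 days after LPS, 36.6, 47.4 and 26.7 CPM after LPS + Beta-Ac, and 36.0 and 28.3 CPM at term. The LPS + Beta-Ac group was 0.61 (SE 0.20) above preterm controls at an adjusted p of 0.0508, which became 0.0477 without animal 092 and 0.0166 without animal 255. MVK, the kinase that opens this stretch, rose from 15.5 ± 1.5 CPM (SD, n = 4) to 31.5 ± 6.13 CPM (SD, n = 4), a fold change of 2.01. PMVK, the next kinase, was the only enzyme that did not pass, at 21.9, 19.6, 22.9 and 21.4 CPM in preterm controls and 20.6, 33.3, 18.4 and 14.5 CPM at 16 hours (-0.05, SE 0.19, adjusted p = 0.861). Animal 029, which had the highest PMVK value at 16 hours, lay above the preterm range, 026 within it and 035 and 038 below it.

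IDI1, which interconverts the isoprenoid units, and FDPS, which joins them to farnesyl diphosphate, came next. IDI1 rose from 9.11 ± 2.25 to 61.4 ± 17.9 CPM (SD, n = 4 each), a 6.64-fold difference (log2 2.73, SE 0.23). FDPS (ENSMMUG00000023144) was at 94.9, 68.5, 82.1 and 73.1 CPM in preterm controls, 273, 267, 217 and 272 CPM at 16 hours, 85.6, 108 and 83.0 CPM at 5 days, 102.5, 81.7 and 79.0 CPM after LPS + Beta-Ac, and 95.6 and 93.7 CPM at term. Animal 035 was the lowest at 16 hours and still above every animal outside that group, and the log2 fold change was 1.70 (SE 0.13, adjusted p = 8.92e-08).

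The squalene and lanosterol steps also rose. FDFT1, the squalene synthase, went from 104 ± 14.9 to 240.2 ± 38.7 CPM (2.31-fold), SQLE, the epoxidase and a rate-limiting enzyme, from 28.0 ± 10.4 to 132 ± 34.6 CPM (4.81-fold), and LSS, the lanosterol synthase, from 51.0 ± 10.9 to 239.9 ± 55.2 CPM (4.70-fold), each given as SD with n = 4. Their adjusted p values were 3.55e-06, 5.05e-06 and 3.92e-07.

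Enzymes that trim and reduce lanosterol included the member with the largest rise, DHCR7, and MSMO1, which also differed later. DHCR7 (ENSMMUG00000011976), which carries out the final reduction to cholesterol, was at 14.5, 11.3, 9.62 and 10.02 CPM in preterm controls and 91.3, 62.3, 64.8 and 90.0 CPM at 16 hours, a 6.74-fold rise (log2 2.75, SE 0.19, adjusted p = 2.98e-08). In the remaining groups it was at 7.88, 13.1 and 9.93 CPM (LPS, 5 days), 12.0, 10.95 and 8.75 CPM (LPS + Beta-Ac) and 15.6 and 14.6 CPM (term). NSDHL (ENSMMUG00000013176), which removes methyl groups from the ring, was at 30.8, 29.3, 29.5 and 27.0 CPM in preterm controls and 83.3, 82.5, 72.3 and 83.4 CPM at 16 hours (log2 1.46, SE 0.11, adjusted p = 6.69e-08). NSDHL was at 30.8, 33.7 and 26.8 CPM at 5 days, 33.1, 30.9 and 25.3 CPM after LPS + Beta-Ac, and 33.5 and 30.6 CPM at term.

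MSMO1 (ENSMMUG00000056040), the methylsterol oxidase, was at 63.6, 39.2, 47.8 and 42.7 CPM in preterm controls and 269.6, 188, 147 and 259 CPM at 16 hours (log2 2.14, SE 0.20, adjusted p = 6.31e-07). At 5 days its values were 23.1, 32.0 and 27.0 CPM after LPS and 28.9, 21.4 and 27.5 CPM after LPS + Beta-Ac, below all preterm controls, whereas at term they were 63.7 and 69.5 CPM. The falls were -0.81 (SE 0.21, adjusted p = 0.0189) and -0.88 (SE 0.21, adjusted p = 0.00932), and MSMO1 was the only sterol member that passed against preterm controls in either group. The call after LPS was lost without animal 092 (adjusted p = 0.0584), 239 (0.101) or 242 (0.0528), and that after LPS + Beta-Ac without animal 249 (0.0632). HSD17B7, the ketoreductase of the same complex, rose 3.23-fold at 16 hours (log2 1.69, SE 0.14), and SC5D, which introduces a double bond into the ring, rose 2.57-fold (log2 1.36, SE 0.26, adjusted p = 8.90e-04).

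**Figure D2:**
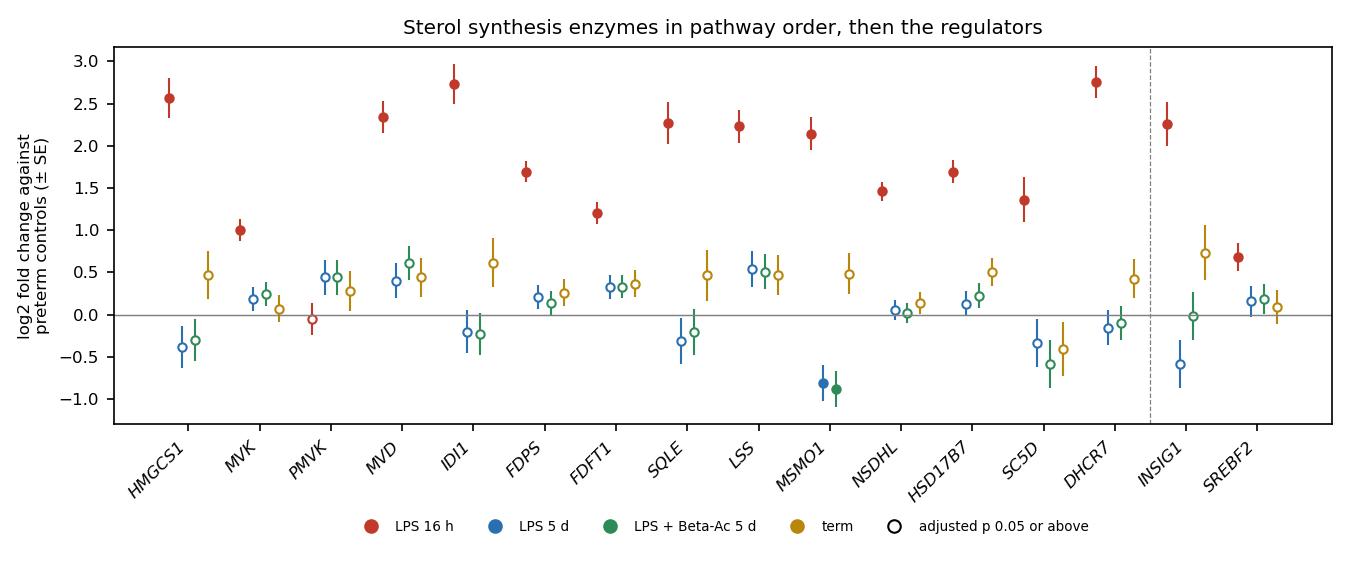
Log2 fold changes against preterm controls (y axis, points, with bars of ± SE) for 14 sterol enzymes in the order of the pathway and for INSIG1 and SREBF2, in 4 groups. Filled points passed at an adjusted p below 0.05. The 16-hour points stand between 0.68 and 2.75 except for PMVK at -0.05, and the points of the other 3 groups lie between -0.88 and 0.74, with MSMO1 alone filled.

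From 16 hours to 5 days after LPS, the same 15 sterol members that had risen were lower, where 19.2% of all genes were lower. The median over the 16 was -1.70 beside 0.04 over all genes. Both comparisons use the animals at 16 hours, so the values are given side by side and not as separate evidence. HMGCS1 and MSMO1 fell by 2.95, IDI1 by 2.93, DHCR7 by 2.91 and INSIG1 by 2.85 on the log2 scale, and the smallest falls were those of MVK (0.81) and SREBF2 (0.52). PMVK differed by 0.49 (SE 0.21, adjusted p = 0.0757). Against preterm controls the 16 members had a median of 0.09 at 5 days after LPS, 0.08 after LPS + Beta-Ac and 0.43 at term. At term 15 of 16 were above 0 and SC5D alone was below (-0.41), but none passed, the smallest adjusted p being that of HSD17B7 (0.51, SE 0.17, adjusted p = 0.109), and with 2 animals the term group had the widest standard errors.

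The animals at 16 hours did not respond equally. Averaged over the 16 sterol members, the log2 level above the preterm mean was 2.04 in animal 026, 1.69 in 029, 1.44 in 035 and 1.91 in 038. Over the fatty acid members it was 1.24, 0.51, 1.11 and 1.20 in the same order, so the animal nearest to the controls was 035 for sterol genes and 029 for fatty acid genes. Among the preterm controls, animal 092 was the highest for sterol genes (0.29) and the others lay between -0.15 and -0.03.

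Fatty acid synthesis rose at 16 hours in 7 of 7 members, by log2 fold changes of 0.51 to 2.32, where 18.5% of all genes were higher. SREBF1 (ENSMMUG00000023375), the regulator of this route, was at 62.9, 88.3, 59.2 and 68.7 CPM in preterm controls, 101, 144, 142 and 112 CPM at 16 hours, 96.0, 144 and 112 CPM at 5 days after LPS, and 136, 179 and 142 CPM after LPS + Beta-Ac. In all 3 LPS-exposed groups every animal lay above every preterm control, and the log2 fold changes were 0.84 (SE 0.18, adjusted p = 0.00216), 0.75 (SE 0.20, adjusted p = 0.0198) and 1.13 (SE 0.20, adjusted p = 0.00122). SREBF1 was thus the only fatty acid member higher in each of them, and it did not differ detectably between 16 hours and 5 days (-0.09, SE 0.20, adjusted p = 0.759). The call at 5 days after LPS was lost without animal 092 (adjusted p = 0.0545), 113 (0.0603) or 240 (0.0971). The term animals were at 133 and 82.6 CPM, the second within the preterm range (0.60, SE 0.22, adjusted p = 0.152).

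ACLY (ENSMMUG00000018931) supplies cytosolic acetyl-CoA to both the sterol and the fatty acid routes. Its level was tight in preterm controls, at 139, 141, 139 and 133 CPM, and reached 249, 182, 224 and 236 CPM at 16 hours (0.68, SE 0.09, adjusted p = 4.67e-05). It was 123, 111 and 118 CPM at 5 days, 126, 126.0 and 129 CPM after LPS + Beta-Ac, and 95.9 and 105 CPM at term, all below the lowest preterm control. The term difference, -0.46 (SE 0.12, adjusted p = 0.039), was the only one among 32 members that passed at term, and it was lost without animal 092 (0.0868), 101 (0.0765), 113 (0.0876), 200 (0.250) or 201 (0.0877). Between 16 hours and 5 days ACLY fell by 0.92 (adjusted p = 6.74e-06).

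The enzymes that build the chain rose as well. FASN (ENSMMUG00000012811), the fatty acid synthase, was at 143, 145, 135 and 178 CPM in preterm controls, 311, 190.5, 289 and 246 CPM at 16 hours, 191, 295 and 185 CPM at 5 days, 224, 272 and 193 CPM after LPS + Beta-Ac, and 208 and 174 CPM at term. Every LPS-exposed animal was above the preterm range. The log2 fold change was 0.77 (SE 0.18, adjusted p = 0.00301) at 16 hours, 0.55 (SE 0.19, adjusted p = 0.0676) at 5 days after LPS and 0.61 (SE 0.19, adjusted p = 0.0396) after LPS + Beta-Ac. Without animal 209 the value after LPS passed (0.64, adjusted p = 0.0471), and the call after LPS + Beta-Ac was lost without animal 092 (0.0866), 101 (0.0818), 113 (0.0984), 248 (0.0896) or 249 (0.165).

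ACACA, the acetyl-CoA carboxylase that makes malonyl-CoA, was at 42.3, 32.5, 50.9 and 64.7 CPM in preterm controls and 98.2, 39.4, 100.4 and 91.6 CPM at 16 hours. Animal 029 remained within the preterm range, and the rise of 0.74 (SE 0.28) passed narrowly (adjusted p = 0.0472). It did not pass without animal 026 (0.117), 035 (0.128), 038 (0.11), 092 (0.0976), 101 (0.142) or 113 (0.0642). ELOVL5, an elongase of polyunsaturated chains, went from 106 ± 16.7 to 151 ± 23.1 CPM (SD, n = 4; 0.51, SE 0.13, adjusted p = 0.00798) with overlap between the groups, and at 5 days after LPS was at 81.6 ± 8.35 CPM (SD, n = 3).

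SCD and ELOVL6, which desaturate and lengthen palmitate, were high at 16 hours and low again at 5 days. SCD (ENSMMUG00000058462) was at 36.2, 28.6, 32.6 and 33.6 CPM in preterm controls and 242, 86.4, 171 and 200.2 CPM at 16 hours, a 5.00-fold rise (log2 2.32, SE 0.25, adjusted p = 4.94e-06) in which animal 029 was the lowest. At 5 days SCD was at 23.1, 36.6 and 33.7 CPM after LPS and 50.8, 50.3 and 35.0 CPM after LPS + Beta-Ac, where 2 of 3 animals lay above the controls without the group passing (0.45, SE 0.27, adjusted p = 0.292). At term it was 71.2 and 65.9 CPM, above all preterm controls, a log2 difference of 1.07 (SE 0.31) that missed the threshold (adjusted p = 0.0702). ELOVL6 (ENSMMUG00000050694) was scarce, at 3.13, 3.61, 3.09 and 3.79 CPM in preterm controls, and reached 10.5, 4.39, 7.30 and 12.8 CPM at 16 hours (log2 1.24, SE 0.25, adjusted p = 0.00128). Afterwards it lay below every preterm control, at 2.51, 2.57 and 2.38 CPM after LPS (-0.44, SE 0.27, adjusted p = 0.325) and at 2.04, 1.63 and 1.81 CPM after LPS + Beta-Ac (-0.87, SE 0.27, adjusted p = 0.0383). The latter call was lost when any of the 7 animals of its comparison was left out, with adjusted p from 0.0601 to 0.149.

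**Figure D3:**
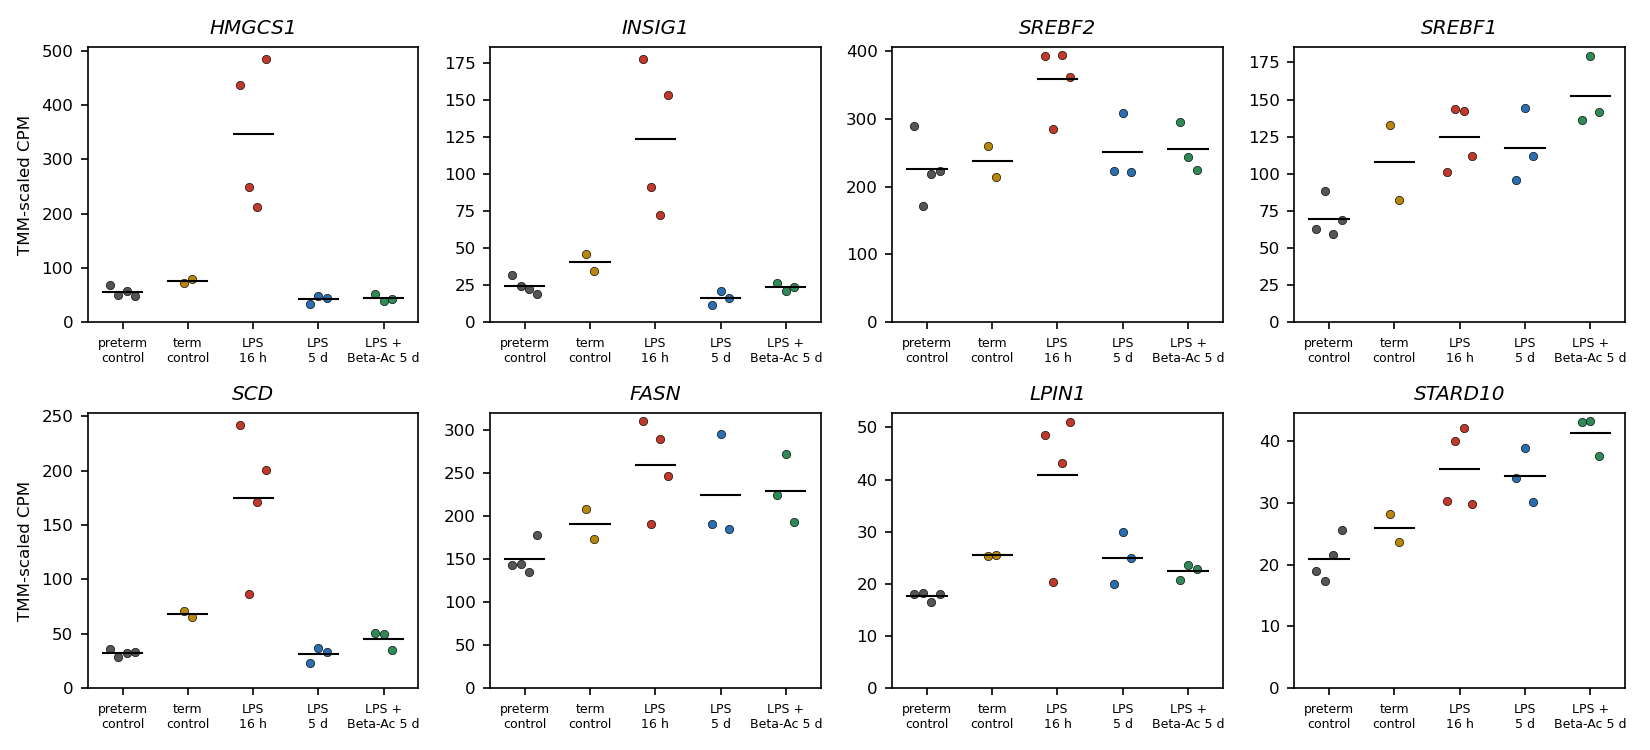
TMM-scaled CPM (linear y axes from 0) per animal (points) with group means (bars) for HMGCS1, INSIG1, SREBF2, SREBF1, SCD, FASN, LPIN1 and STARD10 in 5 groups. For HMGCS1, INSIG1 and SCD the 4 animals at 16 hours are above all others, whereas SREBF1, FASN and STARD10 lie above the preterm controls in all animals of the 3 LPS-exposed groups.

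Between 16 hours and 5 days 4 of 7 fatty acid members were lower, where 19.2% of all genes were lower. They were SCD (-2.42), ELOVL6 (-1.68), ACLY (-0.92) and ELOVL5 (-0.88), with adjusted p from 6.74e-06 to 2.60e-04. SREBF1, FASN (-0.22, SE 0.19, adjusted p = 0.406) and ACACA (-0.08, SE 0.30, adjusted p = 0.86) did not pass. Over the 7 members the median against preterm controls was -0.10 at 5 days after LPS, 0.45 after LPS + Beta-Ac and 0.35 at term.

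Phospholipid synthesis moved in both directions. Phosphatidylcholine is made from choline by the kinase CHKA, by PCYT1A and PCYT1B, which activate phosphocholine with CTP, and by the transferase CHPT1, which joins the activated choline to the diacylglycerol that GPAM, AGPAT2 and the lipins provide. At 16 hours LPIN1, STARD10 and PCYT1A were higher, CHPT1 and PCYT1B lower, and CHKA, GPAM, AGPAT2 and LPIN2 did not pass.

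On the glycerol branch, LPIN1 (ENSMMUG00000021672), a phosphatidate phosphatase that yields diacylglycerol, was at 17.98, 18.2, 16.5 and 18.1 CPM in preterm controls and 48.6, 20.3, 43.2 and 51.0 CPM at 16 hours. Animal 029 lay just above the controls and the other 3 well above them, and the log2 fold change was 1.11 (SE 0.23, adjusted p = 0.00121). At 5 days LPIN1 was at 20.1, 30.0 and 25.0 CPM after LPS and 20.7, 23.6 and 22.9 CPM after LPS + Beta-Ac, and at term at 25.3 and 25.6 CPM, in every animal above the preterm controls, but none of these passed (0.48, 0.34 and 0.52 with SE of 0.24 to 0.28). The fall from 16 hours to 5 days (-0.64, SE 0.24, adjusted p = 0.0548) passed once animal 029 was left out (-0.94, adjusted p = 8.38e-05). LPIN2 was lower at 16 hours than at 5 days after LPS, at 127 ± 22.5 against 171 ± 4.72 CPM (0.45, SE 0.13, adjusted p = 0.0132), while against preterm controls (149 ± 10.2 CPM) neither passed.

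GPAM, the mitochondrial acyltransferase that opens the branch, was at 54.4 ± 11.03 CPM in preterm controls and 55.2 ± 3.68 CPM at 16 hours (0.04, SE 0.21). AGPAT2, which adds the next acyl chain, went from 16.9 ± 3.11 to 21.3 ± 7.08 CPM (0.29, SE 0.23), and its 3 animals in each 5-day group lay above all preterm controls without passing (0.65 and 0.66, SE 0.25, adjusted p = 0.0895 and 0.0799).

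On the choline branch, PCYT1A (ENSMMUG00000038924), which carries out the rate-limiting step of the branch, was at 100.3, 94.4, 102 and 95.7 CPM in preterm controls and 135, 102.2, 146 and 156 CPM at 16 hours, the lowest of these just above the highest control. Its rise was 0.44 (SE 0.11, adjusted p = 0.00477). It was at 91.9, 89.2 and 89.5 CPM at 5 days, 95.4, 93.9 and 94.1 CPM after LPS + Beta-Ac, and 92.9 and 90.9 CPM at term, and fell by 0.56 between 16 hours and 5 days (adjusted p = 0.0016). CHKA stayed between 42.0 and 64.8 CPM in 15 animals, with term animal 200 at 92.3 CPM, and passed in no comparison.

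CHPT1 (ENSMMUG00000020877), which completes phosphatidylcholine, was at 19.7, 12.7, 21.8 and 19.4 CPM in preterm controls and 9.37, 11.01, 11.4 and 8.90 CPM at 16 hours, a fall of 0.83 on the log2 scale (SE 0.20, adjusted p = 0.00461). It was at 11.2, 10.7 and 14.5 CPM at 5 days after LPS (-0.59, SE 0.22, adjusted p = 0.0899, and -0.75, adjusted p = 0.033, without animal 101), and at 8.63, 8.95 and 10.3 CPM after LPS + Beta-Ac (-0.95, SE 0.22, adjusted p = 0.00733). The term animals, at 13.0 and 24.2 CPM, lay within and above the preterm range. STARD10 (ENSMMUG00000039301), a carrier that binds phosphatidylcholine, was at 19.0, 17.3, 21.6 and 25.5 CPM in preterm controls, 30.2, 39.9, 42.1 and 29.7 CPM at 16 hours, 34.0, 38.8 and 30.1 CPM at 5 days, 43.0, 43.2 and 37.6 CPM after LPS + Beta-Ac, and 28.1 and 23.6 CPM at term. All 10 LPS-exposed animals exceeded all preterm controls, by 0.76 (SE 0.15, adjusted p = 9.59e-04), 0.72 (SE 0.16, adjusted p = 0.00804) and 0.99 (SE 0.16, adjusted p = 7.65e-04). STARD10 and SREBF1 were the 2 members higher than in preterm controls in all 3 LPS-exposed groups.

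**Figure D4:**
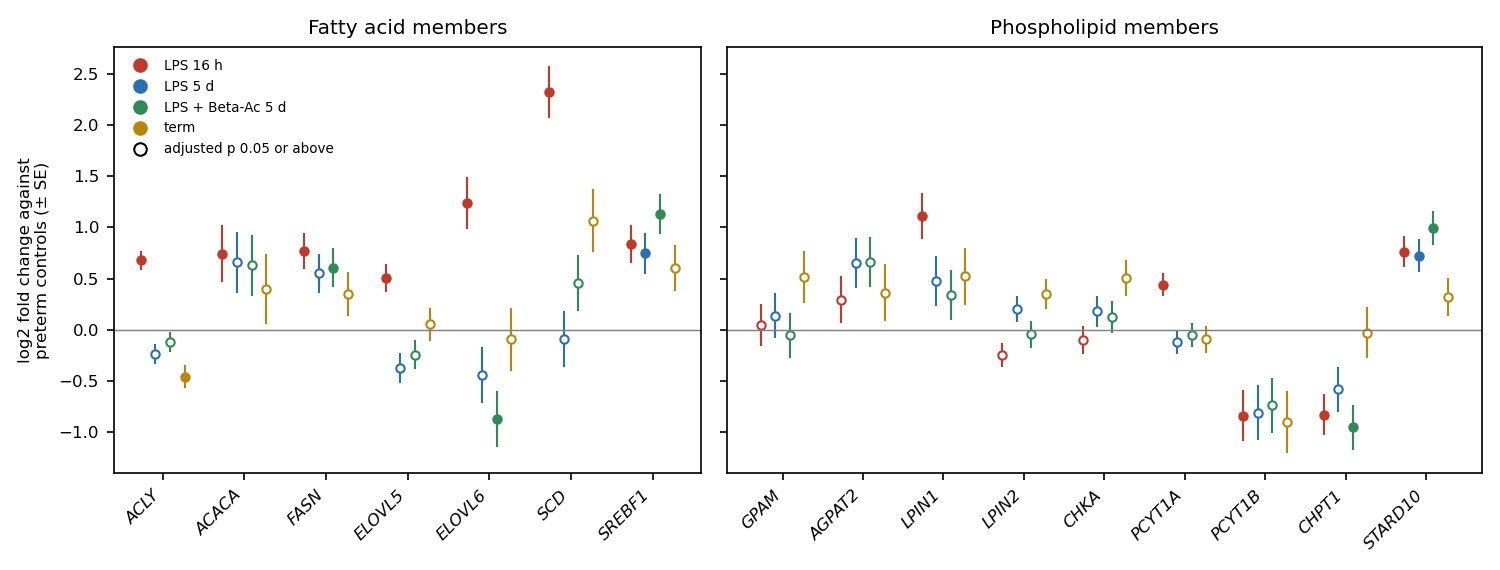
Log2 fold changes against preterm controls (y axis, points, with bars of ± SE) for 7 fatty acid and 9 phospholipid members in 4 groups, filled where the adjusted p was below 0.05. SCD stands at 2.32 at 16 hours while STARD10 is filled in all 3 LPS-exposed groups and CHPT1 and PCYT1B lie below 0 at 16 hours.

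Some enzymes of the same family moved in opposite directions at 16 hours, and the families shown here were chosen after their values were seen. The acyl-CoA synthetases ACSL1 (2.88), ACSL3 (1.46), ACSL4 (3.48) and ACSL5 (2.09) moved together, all higher. Of the desaturases, FADS1 (2.01) and FADS2 (1.42) were higher, while FADS3 did not pass (0.23, SE 0.17, adjusted p = 0.307). Of the elongases, ELOVL5 and ELOVL6 were higher, ELOVL4 was lower with overlap between the groups, and ELOVL7 did not pass. PCYT1B, the isoenzyme of PCYT1A, fell from 11.3 ± 2.43 to 6.46 ± 2.26 CPM (SD, n = 4; -0.84, SE 0.25, adjusted p = 0.0149, and -0.58, adjusted p = 0.0544, without animal 035) where PCYT1A rose. The level of PCYT1B was similar in the other groups, though it did not pass there. It was 6.42 ± 1.75 CPM at 5 days after LPS, 6.59 ± 0.24 CPM after LPS + Beta-Ac and 5.88 ± 0.61 CPM at term. From the lists of further pathway genes, SCD5, the other stearoyl-CoA desaturase, fell from 69.1 ± 9.33 to 16.3 ± 1.88 CPM (-2.07, SE 0.14, adjusted p = 3.18e-08) where SCD rose. CEPT1, which shares the reaction of CHPT1 and also makes phosphatidylethanolamine, rose from 58.2 ± 5.50 to 86.5 ± 5.06 CPM (0.57, SE 0.09, adjusted p = 1.61e-04) where CHPT1 fell, and was then lower than in preterm controls at 5 days after LPS (-0.47) and after LPS + Beta-Ac (-0.52). Chosen after its values were seen, ACACB, the mitochondrial acetyl-CoA carboxylase, fell from 64.5 ± 8.99 to 23.6 ± 6.5 CPM (-1.49, SE 0.20, adjusted p = 3.52e-05). LPIN3, likewise chosen afterwards, was at 0.85 ± 0.33 CPM in preterm controls and 0.46 ± 0.26 CPM at 16 hours (-0.82, SE 0.36, adjusted p = 0.0846), and at 2.38 ± 0.25 CPM at 5 days after LPS (1.48, SE 0.39, adjusted p = 0.0185). The last call was lost without animal 092 (0.0504), 240 (0.0678) or 242 (0.0539), and the value at 16 hours passed without animal 029 (0.0186). The difference between 2 enzymes of a family was not tested as such.

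**Figure D5:**
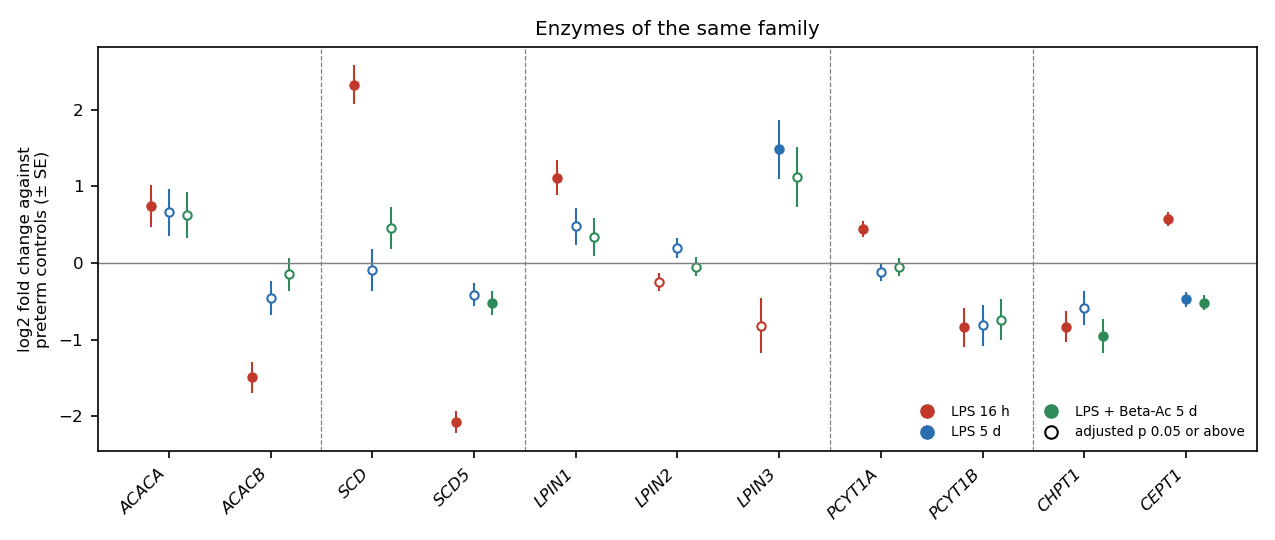
Log2 fold changes against preterm controls (y axis, points, with bars of ± SE) for 5 families of related enzymes in the 3 LPS-exposed groups, filled where the adjusted p was below 0.05. At 16 hours SCD (2.32) and SCD5 (-2.07), ACACA (0.74) and ACACB (-1.49), PCYT1A (0.44) and PCYT1B (-0.84), and CEPT1 (0.57) and CHPT1 (-0.83) lie on opposite sides of 0.

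Of 9 further sterol synthesis genes tested, 3 were higher and 2 lower at 16 hours, where 18.5% of all genes were higher and 19.9% lower. Among them ACAT2, which condenses acetyl-CoA at the start of the route, rose from 15.7 ± 3.28 to 80.0 ± 22.9 CPM (SD, n = 4 each; log2 2.31, SE 0.23, adjusted p = 1.27e-06). It was at 12.4 ± 2.67 CPM (SD, n = 3) at 5 days after LPS and did not pass against preterm controls there (-0.33, SE 0.24, adjusted p = 0.41). The list as a whole had a median of -0.08 at 16 hours, with 4 genes above 0 and 5 below.

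Genes of sterol uptake and export were 7 higher and 2 lower of 15 at 16 hours, beside 18.5% and 19.9% of all genes. CH25H, which makes 25-hydroxycholesterol and is known as an interferon-induced gene of myeloid cells, rose from 2.06 ± 0.52 to 50.8 ± 17.4 CPM (SD, n = 4 each; log2 4.55, SE 0.28, adjusted p = 9.71e-09). Between 16 hours and 5 days it fell by 4.13 on the log2 scale.

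Further fatty acid genes were 9 higher and 5 lower of 20 at 16 hours, beside 18.5% and 19.9% of all genes. ACSL4 and ACSL5, which activate fatty acids with coenzyme A, rose by 3.48 (SE 0.28) and 2.09 (SE 0.14), from 40.2 ± 8.38 to 457 ± 125 CPM and from 69.0 ± 14.8 to 290.5 ± 43.3 CPM. ACSL5 was still higher than in preterm controls at 5 days after LPS (0.83, adjusted p = 0.00265) and after LPS + Beta-Ac (1.11, adjusted p = 2.47e-04). Further phospholipid genes were 12 higher and 3 lower of 27 at 16 hours, beside the same shares of all genes. Among them were LPCAT3, which remodels phosphatidylcholine with polyunsaturated chains (0.80, SE 0.09, adjusted p = 9.87e-06), and SLC44A2, a choline transporter (-0.99, SE 0.12, adjusted p = 1.02e-05). Each 16-hour call on a context gene named with its value in these paragraphs was kept when any animal was left out.

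Beta-Ac was compared with LPS alone at 5 days to see what the corticosteroid added. 0 of 32 members passed, where 0.0885% of all genes were higher and 0% lower with Beta-Ac, and limma-voom also passed 0 members. At an unadjusted p below 0.05 there were 0 members as well, against 924 of 19199 genes. The log2 differences of the members ran from -0.44 for ELOVL6 (SE 0.29) to 0.57 for INSIG1 (SE 0.30), with a median of 0.02 over the 32. INSIG1 was higher in every LPS + Beta-Ac animal than in every LPS animal, by 26.7, 21.4 and 24.0 against 12.0, 20.9 and 16.6 CPM, and ELOVL6 was lower in every one. SCD differed by 0.55 (SE 0.29) with overlap. With 3 animals per group the standard errors of the members were 0.11 to 0.32. They rest on a single variance per gene fitted over all 5 groups, the 16-hour animals included. For ELOVL6 the SD of log2 CPM was 0.06 after LPS, 0.15 after LPS + Beta-Ac and 0.67 at 16 hours. A p that misses the threshold does not show that the groups were alike.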

How the data were processed

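Lung RNA from 16 rhesus fetuses was sequenced by the authors as 75 bp paired-end poly(A) libraries and quantified with kallisto against the Mmul_10 build, summarised to genes with tximport and tested with DESeq2, with no version, annotation release or rounding rule stated. The deposited table holds counts, as whole numbers, for each Ensembl gene in each animal, and no columns of other samples. RNA extraction is described as Trizol in the labels and as a column kit in the methods.

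Symbols came from an Ensembl name table (17256 of 22515 identifiers had one), and 629 genes had no count. Genes with at least 0.371 CPM (10 counts in the median library) in 2 or more animals and 15 counts in all were kept. TMM factors (log-ratio trim 30%, mean trim 5%) scaled the libraries, and log2 CPM used a prior count of 2. limma 3.58.1 in R 4.3.3 was fitted with 1 mean per group over all animals, with trend and robust options, and p values were adjusted by Benjamini-Hochberg over all 19199 genes in each of 6 comparisons, 4 of which share the preterm controls. The study's minimum of 2-fold was an alternative. The count models edgeR and DESeq2 were not used here, although every value is a whole number, because the automated unit check could not read the table's columns as counts. Each animal is a separate fetus, and p values reflect the spread between animals within groups, pooled over all 5 groups and not only the 2 compared. Labels give no batch.

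Members, pathway lists and marker lists were chosen with earlier results of these data known. Values in every animal are given for INSIG1, SREBF1, SREBF2, FASN, SCD, PCYT1A and HMGCS1 and for the 5 sterol, 3 fatty acid and 4 phospholipid members with the smallest adjusted p over the comparisons. Up to 3 further genes per pathway list were named by the same measure, except some that are not reported here, and PMVK, ACACA, ACACB and LPIN3 were given in more detail after their values were seen. Promoter sequences of this build were not analysed here. Alternatives were another scaling, filter, prior count, limma-voom, only the compared groups, 2-fold, leaving out each animal, and, chosen after seeing the data, thinning to equal depth.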

Additional observations from a re-analysis of the deposited data

Results flagged for a closer look

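Within groups of 4 animals, 5 members had an animal far from the other 3 by Dixon's criterion, on the log2 CPM scale. At 16 hours animal 035 was low for FDPS (7.76, the others 8.06 to 8.09) and NSDHL (6.18, the others 6.37 to 6.38), and animal 029 was low for ACACA (5.3, the others 6.52 to 6.65) and LPIN2 (6.55, the others 7.08 to 7.15). Among preterm controls animal 113 was low for LPIN1 (4.05, the others 4.17 to 4.19). That is 4 of 32 members at 16 hours and 1 of 32 in preterm controls, where chance flags about 1 group in 20.

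The effect of LPS differed between 16 hours and 5 days in 21 members, tested as the difference between the groups, where 19.2% of all genes were lower and 15.8% higher at 5 days. On the log2 scale, 5 days minus 16 hours, it was -2.95 for HMGCS1, -2.58 for SQLE, -1.69 for LSS, -0.87 for FDFT1, -1.48 for FDPS, -2.93 for IDI1, -1.93 for MVD, -0.81 for MVK, -2.9 for DHCR7, -1.7 for SC5D, -2.95 for MSMO1, -1.4 for NSDHL, -1.57 for HSD17B7, -2.85 for INSIG1 and -0.52 for SREBF2. For the fatty acid members it was -0.92 for ACLY, -2.42 for SCD, -0.88 for ELOVL5 and -1.68 for ELOVL6, and for the phospholipid members -0.56 for PCYT1A and 0.45 for LPIN2.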

How the results depend on the processing

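No member that passed changed direction under any alternative run. No paired analysis was possible because the groups share no animal numbers. Of 58 calls on members, 1 was lost with median-of-ratios scaling, 5 with total counts, 0 without the filter, 0 with a prior count of 0.5, 3 with limma-voom, 3 with the compared groups alone, 26 with the 2-fold minimum, 9 when some animal was left out and 2 after thinning. The 2-fold minimum left 17 members at 16 hours, 0 at 5 days after LPS and 1 after LPS + Beta-Ac. Of all 19199 genes it left 1583 higher and 1174 lower at 16 hours, 500 and 430 at 5 days after LPS, and 778 and 468 after LPS + Beta-Ac. With the compared groups alone 7 members passed at 5 days after LPS, where 1645 of 18703 genes were higher and 1821 lower. After LPS + Beta-Ac 14 members passed in that fit, where 1955 of 18717 genes were higher and 1955 lower. The term call (1 member) became 0 under median-of-ratios, total counts, limma-voom, 2-fold and thinning, where 190 to 299 of all genes were higher and 183 to 419 lower. With the compared groups alone ACLY was lost and 1 other member, higher, passed, where 53 of 18675 genes were higher and 80 lower. Scaling by total counts moved the median of all genes at 16 hours from -0.09 to -0.29 and the calls from 3559 higher and 3824 lower to 2542 and 6187, and the phospholipid median from 0.04 to -0.16 at 16 hours and from 0.10 to 0.28 between 16 hours and 5 days. Leaving out each animal gave 25 to 27 members at 16 hours, 20 to 23 between 16 hours and 5 days, 1 (without 092) to 6 (without 209) at 5 days after LPS, 3 (without 249) to 6 after LPS + Beta-Ac and 0 to 1 at term. The share of all genes that passed in these runs is not given here, so the ranges cannot be read as particular to the members. The phospholipid median then ran from -0.077 to 0.138 at 16 hours, 0.052 to 0.301 between 16 hours and 5 days and 0.194 to 0.446 at term, and the fatty acid median from -0.171 to 0.134 at 5 days after LPS. The cause of these shifts was not tested. The lowest count of any member in a library was 45, for ELOVL6.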
